A study of Mus musculus with 79 samples.

Results

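Mammary tumors grown from a lung-metastasis line and from a liver-metastasis line were compared in obese mice that ate the cyclooxygenase inhibitor sulindac. The arrays were chosen by sample title, 7 of metM-Wnt-lung tumors and 7 of metM-Wnt-liver tumors, together 14 of the 79 arrays of the series. Both lines are subclones of M-Wnt, a claudin-low mammary cancer line that goes back to MMTV-Wnt1 transgenic mice, and each was isolated from metastases in the organ of its name, so that each group stands for 1 line. The hosts were female C57BL/6J mice, 8 or 9 weeks old when the diets began. Tumors called DIOSul came from mice with diet-induced obesity (60 kcal% fat for 15 weeks) that then ate the same food with 140 ppm sulindac, and DIO tumors from obese mice without the drug. Cells of either line went into mammary fat pad 4, at 5 weeks after that randomization. The same 2 lines in DIO mice (7 and 7 arrays) served to ask which line differences are there without sulindac, and those in lean mice on a 10 kcal% fat diet without sulindac (Con, 6 and 7 arrays) or with it (ConSul, 6 and 4 arrays) are given as side values. All values below are the deposited normalised signals of whole tumors on the log2 scale, and a difference is metM-Wnt-lung minus metM-Wnt-liver.

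Cyclooxygenases turn arachidonic acid into prostaglandin H2, which terminal synthases such as Ptges convert into prostaglandin E2 and its relatives. These lipids act on tumor, stromal and immune cells through a family of G protein-coupled receptors, and sulindac blocks their synthesis at the cyclooxygenase step, upstream of Ptges. Claudin-low mammary cancers are mesenchymal tumors with little of the keratin and junction expression of luminal cells. In a whole tumor the signal is the sum over cancer cells, leukocytes, vessels, stroma and any tissue cut out with them, so that fewer cells of a type and less RNA per cell cannot be told apart.

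The 14 arrays were alike in the distribution of their values, with medians of 6.44 to 6.64 in metM-Wnt-lung tumors, against 6.44 to 6.65 in metM-Wnt-liver tumors. Vim, the intermediate filament of mesenchymal cells, read 17.36 to 17.69 in metM-Wnt-lung tumors, against 17.12 to 17.66 in metM-Wnt-liver tumors (adjusted p = 0.874). Wnt1, the gene of the transgene that drove the original tumors, read 2.97 to 3.48 in metM-Wnt-lung tumors, against 2.97 to 3.39 in metM-Wnt-liver tumors (adjusted p = 0.81). These values lie around the lowest percentile of the arrays (3.19 to 3.24 and 3.21 to 3.26), so that Wnt1 says little about the lines. Of the organs from which the lines were isolated, none of 15 hepatocyte and 11 lung epithelial markers was called, and Alb and Sftpc, albumin and a surfactant protein, read 3.42 to 6.82 over all 14 arrays. Of the 14 arrays, 5 passed a score of 2 for skeletal muscle or 1 for skin RNA, and are called muscle- or skin-rich below. They were metM-Wnt-lung replicates 2 and 3 (skin) and 5 (muscle) and metM-Wnt-liver replicates 3 (muscle) and 4 (skin). The scores were centred within each line, and metM-Wnt-lung replicates 1 and 4, with muscle scores of 1.99 and 1.88, were kept. The mean of 20 muscle genes ran from 4.54 to 13.69 in metM-Wnt-lung tumors, against 4.63 to 11.87 in metM-Wnt-liver tumors, with medians of 6.54 and 6.72. That of 17 keratinocyte genes ran from 4.38 to 9.87 in metM-Wnt-lung tumors, against 4.24 to 9.38 in metM-Wnt-liver tumors, with medians of 4.54 and 4.57. No member of either list was called, though 20 of 20 and 15 of 17 had a positive difference. The part of this tissue in the results was not tested beyond 2 fits. The first took muscle and keratinocyte scores, here centred over the 28 arrays of the fit, as covariates. It called 1206 genes in DIOSul mice (762 higher, 444 lower), against 1173 without them, and 8 of the named genes lost their call. The second left out the 5 arrays and 2 such arrays of DIO mice. That fit leaves 4 metM-Wnt-lung and 5 metM-Wnt-liver DIOSul arrays. In it Acta1, the actin of skeletal muscle, was still higher by 3.43 (adjusted p = 0.31), so that it does not clear the comparison of muscle RNA. A gene that lost its call in that fit is said to have done so, with its adjusted p there. With fewer arrays a call can be lost while the difference holds, so a lost call alone does not show a smaller difference. Calls that a single left-out array could end, out of 28 such fits, are given with the highest adjusted p and the array behind it (for several genes at once, that of the gene named), and these too were lost without the 5 arrays, apart from Cdh2, Mvk and Dusp1. The line, its set of mice and any processing day cannot be told apart, since each line was injected into mice of its own.

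Of 19505 genes tested with limma, 1173 (6.01%) differed between the lines in DIOSul mice at an adjusted p under 0.05. In metM-Wnt-lung tumors the signal of 714 genes (3.66%) was higher and that of 459 (2.35%) lower, and the median difference over all genes was -0.03. Called or not, 8725 genes had a positive and 10744 a negative difference. The counts of the gene lists below are to be read against these shares, and no list was tested as a set. At 352 of the higher genes (1.8% of all tested) and 165 of the lower (0.846%) the 7 metM-Wnt-lung arrays did not overlap the 7 metM-Wnt-liver arrays. With each array centred on its median 536 were higher and 523 lower, and without the 5 arrays high in muscle or skin genes 301 and 134 (435 in all). Of the called genes 313 (1.6%) were higher and 153 (0.784%) lower by at least 1.

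The gene that set the lines furthest apart was Krt8, the type II keratin of simple epithelia. It read 12.50, 14.66 and 15.17 (lowest, median and highest array) in metM-Wnt-lung tumors, against 5.40, 7.13 and 9.34 in metM-Wnt-liver tumors. Every metM-Wnt-lung tumor thus lay over 3 log2 units above the highest metM-Wnt-liver tumor, and the difference was 7.52 ± 0.93 (SE) with adjusted p = 4.54e-06. Plet1, a surface protein of placental and epithelial progenitors, read 10.96, 11.77 and 13.23 in metM-Wnt-lung tumors, against 3.80, 4.58 and 7.69 in metM-Wnt-liver tumors. Ano1, a calcium-activated chloride channel, read 12.83, 13.44 and 14.23 in metM-Wnt-lung tumors, against 5.36, 6.54 and 9.11 in metM-Wnt-liver tumors. Neither gene overlapped between the lines, and the differences were 6.84 ± 0.71 (adjusted p = 3.72e-07) and 6.82 ± 0.72 (adjusted p = 5.38e-07). Padi4, an enzyme that citrullinates histones and is best known from neutrophils, read 9.04, 9.71 and 10.51 in metM-Wnt-lung tumors, against 2.96, 3.45 and 6.46 in metM-Wnt-liver tumors. Its difference was 5.74 ± 0.51 (adjusted p = 3.6e-08), and it was the only called gene among 21 measured neutrophil markers. Of these 19 had a positive difference (median 0.55), and 18 in DIO mice (median 0.50). The metM-Wnt-liver median of Padi4 lay near the lowest percentile of those arrays (3.21 to 3.26). The difference may thus be a lower bound, as for other genes that read there. Tmprss11b, a membrane serine protease, differed by 4.97 ± 0.90, Slc14a1, a urea transporter, by 4.66 ± 0.62, and Sncg, gamma-synuclein, by 4.14 ± 0.55, all with groups apart and adjusted p of 0.00066 or less.

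Prl2c2, a proliferin of the prolactin family that is best known from the placenta, was spread more widely, at 7.71, 9.35 and 13.07 in metM-Wnt-lung tumors, against 4.75, 5.43 and 6.93 in metM-Wnt-liver tumors (difference 4.18 ± 0.83, adjusted p = 0.00175). The related transcripts Prl2c3 and Prl2c5 were also higher with groups apart, by 3.92 ± 0.83 (adjusted p = 0.003) and 3.23 ± 0.81 (adjusted p = 0.0133). All 3 lie on chromosome 13 and are close copies, so that probes for one may read another and the split between them is uncertain. How close they are can be seen from the 250 bases before the starts of Prl2c3 and Prl2c5, shown because both genes rose, with the AP-1 motif TGANTCA in capitals where it occurs:
Prl2c3: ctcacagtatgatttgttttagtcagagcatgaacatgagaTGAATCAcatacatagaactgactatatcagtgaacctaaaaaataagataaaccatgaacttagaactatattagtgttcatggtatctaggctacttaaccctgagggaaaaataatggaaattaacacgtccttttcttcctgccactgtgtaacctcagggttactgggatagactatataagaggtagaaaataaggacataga
Prl2c5: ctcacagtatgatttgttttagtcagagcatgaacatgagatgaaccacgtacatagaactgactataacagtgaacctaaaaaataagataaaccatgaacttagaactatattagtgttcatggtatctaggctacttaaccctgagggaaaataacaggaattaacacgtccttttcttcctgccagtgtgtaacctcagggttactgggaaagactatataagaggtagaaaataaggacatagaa
These sequences differ by an edit distance of 10 bases, and the motif, which reads the same on both strands, is in that of Prl2c3 alone. They lie at chr13:12800080-12800329 on the minus strand and chr13:13182466-13182715 on the plus strand of GRCm38.p6 (RefSeq). Of 32851 RefSeq promoters of this length, 6.75% hold the motif. Of the 10 leading genes higher in metM-Wnt-lung tumors 8 have such a promoter in the table used here and 2 hold it, Padi4 and Plet1, whose promoters are shown for that reason:
Padi4: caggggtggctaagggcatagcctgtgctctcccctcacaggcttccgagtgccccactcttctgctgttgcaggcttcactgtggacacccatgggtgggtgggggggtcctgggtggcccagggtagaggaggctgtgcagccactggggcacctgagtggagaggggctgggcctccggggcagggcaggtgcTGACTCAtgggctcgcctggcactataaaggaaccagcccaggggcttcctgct
Plet1: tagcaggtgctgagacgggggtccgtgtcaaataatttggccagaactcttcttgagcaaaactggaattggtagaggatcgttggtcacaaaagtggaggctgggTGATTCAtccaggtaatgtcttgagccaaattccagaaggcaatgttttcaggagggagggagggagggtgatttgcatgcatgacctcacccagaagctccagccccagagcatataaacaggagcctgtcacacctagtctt
They lie at chr4:140774204-140774453 on the minus strand and chr9:50494275-50494524 on the plus strand of the same build. Of the 10 leading lower genes 4 have a promoter in the table and 1, that of Srpx2, holds the motif. The matches describe the letters only.

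The genes lower in metM-Wnt-lung tumors were led by Osr1, a zinc-finger transcription factor of embryonic mesoderm. It read 4.09, 4.97 and 6.01 in metM-Wnt-lung tumors, against 8.96, 10.39 and 12.04 in metM-Wnt-liver tumors (difference -5.51 ± 0.69, adjusted p = 5.27e-06). Sh3gl3, an endophilin of membrane traffic, read 4.16, 5.20 and 5.48 in metM-Wnt-lung tumors, against 8.41, 9.97 and 10.33 in metM-Wnt-liver tumors (difference -4.65 ± 0.40, adjusted p = 1.9e-08). For both genes a wide gap separated the lines, and the metM-Wnt-lung arrays lay closer together than the metM-Wnt-liver arrays. Mmp16, a membrane-anchored matrix metalloproteinase, differed by -4.01 ± 0.36 and Vgll3, a cofactor of TEAD transcription factors, by -3.88 ± 0.62. Clic5, an intracellular chloride channel protein, differed by -3.73 ± 0.54, Srpx2, a secreted sushi-repeat protein, by -3.70 ± 0.67, and Colec12, a scavenger receptor, by -3.58 ± 0.58. Mrgprf, an orphan receptor, and Nxf3, of the mRNA export factor family, completed the leading set at -2.92 ± 0.35 and -2.86 ± 0.53. All of these had groups apart and adjusted p of 0.000828 or less. Slc7a2, a transporter of arginine and lysine, differed by -3.82 ± 0.71 (adjusted p = 0.00088) but lost its call without the 5 muscle- or skin-rich arrays (adjusted p = 0.064).

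**Figure D1:**
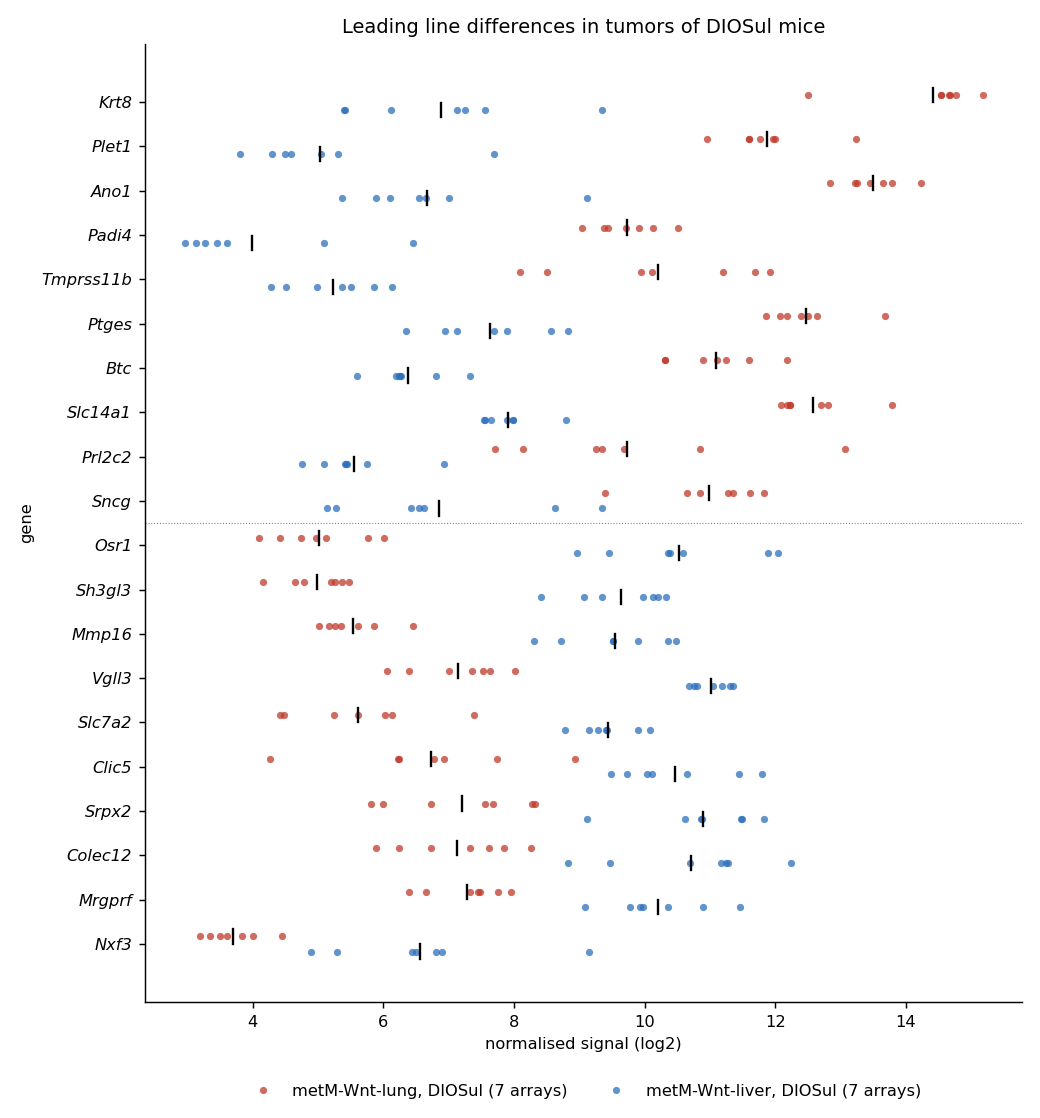
Normalised signal (log2, horizontal axis) of the 10 leading genes higher and, below the dotted line, the 10 leading genes lower in metM-Wnt-lung tumors of DIOSul mice. Each point is 1 array (red, metM-Wnt-lung, 7; blue, metM-Wnt-liver, 7) and each black bar a group mean. For each gene the groups leave a gap, widest for Ano1 among the higher genes (12.83 against 9.11) and for Osr1 among the lower (6.01 against 8.96).

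No rise beside that of Krt8 was seen for its usual partners. Krt18, the type I keratin with which it forms filaments, read 2.94 to 4.52 in metM-Wnt-lung tumors, against 2.81 to 6.11 in metM-Wnt-liver tumors (adjusted p = 0.955). Epcam, an epithelial surface protein, read 3.51 to 6.82 in metM-Wnt-lung tumors, against 2.95 to 7.03 in metM-Wnt-liver tumors (adjusted p = 0.937), and Cdh1, E-cadherin, 6.00 to 9.24 against 5.83 to 8.24 (adjusted p = 0.8). For these 3 genes the lines overlapped over most of the range. Krt18 in both lines and Epcam in metM-Wnt-liver tumors reached down to the lowest percentile of the arrays (3.19 to 3.24 in metM-Wnt-lung, 3.21 to 3.26 in metM-Wnt-liver tumors). A difference could be missed at such signals. Of 32 epithelial junction and claudin genes 4 were called, all higher in metM-Wnt-lung tumors, and the median of the list was 0.08. Besides Krt8 these were junctional plaque proteins and a claudin. Pkp3, plakophilin of desmosomes, read 6.58, 6.95 and 7.61 in metM-Wnt-lung tumors, against 4.74, 5.22 and 5.53 in metM-Wnt-liver tumors (difference 1.87 ± 0.22, adjusted p = 2.7e-06). Jup, plakoglobin, was higher by 1.96 ± 0.36 and Cldn1, claudin-1 of tight junctions, by 1.78 ± 0.42 (adjusted p = 0.00837). The lines did not overlap at any of the 4.

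Genes of the mesenchymal transition list moved little and in both directions, with 3 of 25 higher, 1 lower and a median of 0.24. Mmp14, a membrane-type collagenase, was higher by 0.78 ± 0.19 (adjusted p = 0.00939), and Acta2, smooth muscle actin, lower, at 11.70, 12.82 and 13.48 in metM-Wnt-lung tumors, against 13.79, 14.13 and 15.64 in metM-Wnt-liver tumors (difference -1.54 ± 0.39, adjusted p = 0.0134). Without the muscle- or skin-rich arrays both calls were lost (adjusted p = 0.143 and 0.175). Cdh2, N-cadherin, and Itga5 also passed, and Cdh2 lost the call in 11 and Itga5 in 8 of 28 fits that left out 1 array, with adjusted p up to 0.101 and 0.102, both without metM-Wnt-lung DIOSul replicate 1. Among 29 stem and progenitor genes 7 were higher and none lower (median 0.08). Sox4, a progenitor transcription factor, was higher by 1.36 ± 0.27 (adjusted p = 0.0015), Hmga2, a chromatin protein of embryonic and mesenchymal tumor cells, by 1.12 ± 0.24 (adjusted p = 0.00399) and Itga6 by 1.01 ± 0.19. The other 4, Klf5, Sox9, Cd44 and Hes1, each lost the call in at least 2 of the 28 fits, Klf5 in 2 (at most adjusted p = 0.0668, without metM-Wnt-lung DIOSul replicate 1) and the rest in 11 to 19 (0.116 for Sox9 without metM-Wnt-liver DIOSul replicate 1, 0.111 for Cd44 without metM-Wnt-lung DIOSul replicate 1 and 0.119 for Hes1 without its replicate 7).

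Ptges, the inducible prostaglandin E2 synthase, read 11.86, 12.39 and 13.68 in metM-Wnt-lung tumors, against 6.35, 7.69 and 8.83 in metM-Wnt-liver tumors. No metM-Wnt-liver tumor came within 3 log2 units of the lowest metM-Wnt-lung tumor, and the difference was 4.84 ± 0.52 (adjusted p = 5.72e-07). Ptgs2, the inducible cyclooxygenase, read 12.28, 12.78 and 15.47 in metM-Wnt-lung tumors, against 11.37, 13.43 and 14.16 in metM-Wnt-liver tumors. The groups overlapped over most of their range, with a difference of 0.07 ± 0.61 (adjusted p = 0.982). Ptgs1, the constitutive cyclooxygenase, was not among the genes with a symbol and was not analysed. Of 13 prostanoid synthesis genes 2 were higher and 1 lower, with a median of -0.04. Slco2a1, which takes prostaglandins up into cells, was higher by 1.18 ± 0.31 (adjusted p = 0.019), a call that was lost in 2 of the 28 fits (at most 1.02, adjusted p = 0.0528, without metM-Wnt-lung DIOSul replicate 1) and without the muscle- or skin-rich arrays (adjusted p = 0.147). Tbxas1, the thromboxane synthase of macrophages and platelets, was lower (difference -1.07 ± 0.30, adjusted p = 0.0318), and lost the call in 7 of the 28 fits, at most with adjusted p = 0.085 without metM-Wnt-lung DIOSul replicate 1.

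Of 9 prostanoid receptors none was higher and 2 were lower in metM-Wnt-lung tumors (median -0.19). Ptgfr, the prostaglandin F receptor, read 3.46, 4.29 and 4.74 in metM-Wnt-lung tumors, against 4.71, 6.32 and 8.06 in metM-Wnt-liver tumors. The ranges just overlapped at their edges, and the difference was -1.94 ± 0.40 (adjusted p = 0.00244). Ptger2, a prostaglandin E2 receptor coupled to cyclic AMP, read 6.11, 6.45 and 7.20 in metM-Wnt-lung tumors, against 6.85, 7.56 and 8.73 in metM-Wnt-liver tumors (difference -1.14 ± 0.28, adjusted p = 0.011, and 0.158 without the muscle- or skin-rich arrays). Both receptors were thus lower in the line with more Ptges.

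In the Wnt pathway list 5 of 44 genes were higher and 1 was lower, with a median of 0.05. Wnt7b, a ligand of mammary and lung epithelium, read 12.63, 13.06 and 13.76 in metM-Wnt-lung tumors, against 10.06, 10.47 and 10.84 in metM-Wnt-liver tumors (difference 2.63 ± 0.32, adjusted p = 4.44e-06). Wnt5a, a ligand that mostly signals without beta-catenin, read 8.51, 9.60 and 10.30 in metM-Wnt-lung tumors, against 6.81, 7.09 and 8.40 in metM-Wnt-liver tumors (difference 2.06 ± 0.32, adjusted p = 0.000112). Both ligands separated the lines, Wnt7b widely and Wnt5a by a narrow margin. Apcdd1, a membrane inhibitor of Wnt signaling, was higher by 2.34 ± 0.42 (adjusted p = 0.00066). Wls and Porcn, which carry and lipidate Wnt proteins, were higher by 0.60 and 0.61 (adjusted p = 0.0231 and 0.0456), and Fzd2, a receptor, was lower (difference -1.11, adjusted p = 0.0186). Wls lost the call in 3 of the 28 fits (at most adjusted p = 0.0655, without metM-Wnt-lung DIOSul replicate 3), Porcn in 16 (0.12, without metM-Wnt-lung DIOSul replicate 2) and Fzd2 in 2 (0.0528, without metM-Wnt-liver DIOSul replicate 1), and none of these 3 was called without the muscle- or skin-rich arrays (adjusted p = 0.375, 0.66 and 0.0925).

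Btc, betacellulin, a ligand of the epidermal growth factor receptor, read 10.31, 11.11 and 12.17 in metM-Wnt-lung tumors, against 5.59, 6.25 and 7.32 in metM-Wnt-liver tumors (difference 4.71 ± 0.58, adjusted p = 4.63e-06). Fgf7, a stromal growth factor for epithelial cells, went the other way, at 10.36, 11.02 and 12.35 in metM-Wnt-lung tumors, against 12.79, 13.27 and 14.54 in metM-Wnt-liver tumors (difference -2.18 ± 0.38, adjusted p = 0.000483). Neither gene overlapped between the lines. Epha2, an ephrin receptor, was higher by 1.69 ± 0.29 (adjusted p = 0.0004) and Kitl, stem cell factor, by 1.04 ± 0.20 (adjusted p = 0.00112). Of 37 receptor tyrosine kinases and ligands 5 were higher and 1 lower, with a median of 0.04, which turned to -0.10 without the muscle- or skin-rich arrays. Fgf2 and its receptor Fgfr1 made up the 5, and lost the call in 5 and 9 of the 28 fits (at most adjusted p = 0.073 without metM-Wnt-liver DIOSul replicate 1, and 0.0996 without its replicate 4). Dusp6, a phosphatase that ERK signaling induces, read 14.08 to 14.89 in metM-Wnt-lung tumors, against 12.69 to 14.02 in metM-Wnt-liver tumors (difference 1.2 ± 0.18, adjusted p = 5.74e-05). The immediate-early transcription factors Egr1 and Egr3 were higher by 1.53 ± 0.39 (adjusted p = 0.0134) and 1.08 ± 0.23 (adjusted p = 0.00379), Egr3 without its call once the muscle- or skin-rich arrays were left out (adjusted p = 0.053). Of 23 immediate-early genes 3 were thus higher, and 1, Dusp1, another phosphatase, was lower (difference -1.01, adjusted p = 0.0331), though not in 7 of the 28 fits (at most adjusted p = 0.0942, without metM-Wnt-lung DIOSul replicate 7). Dll1, a Notch ligand, was higher by 2.14 ± 0.40 (adjusted p = 0.000991). Phlda2, an imprinted growth regulator of the placenta, read 6.53, 8.19 and 9.25 in metM-Wnt-lung tumors, against 4.42, 4.68 and 4.88 in metM-Wnt-liver tumors (difference 3.41 ± 0.65, adjusted p = 0.00122). The metM-Wnt-liver tumors lay close together at Phlda2 and the metM-Wnt-lung tumors were spread over more than 2 log2 units.

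Col18a1, the collagen that holds endostatin, read 14.72, 14.94 and 15.28 in metM-Wnt-lung tumors, against 10.76, 11.38 and 12.23 in metM-Wnt-liver tumors (difference 3.5 ± 0.30, adjusted p = 1.9e-08). Of 21 collagens it and Col4a1 alone were called, both higher (median 0.25), and Col4a1 lost the call without metM-Wnt-liver DIOSul replicate 5 (0.82, adjusted p = 0.059) and without the muscle- or skin-rich arrays (0.161). Of 16 integrins 5 were higher and none lower (median 0.38). Itga8 read 8.86, 9.21 and 9.81 in metM-Wnt-lung tumors, against 5.53, 6.31 and 6.64 in metM-Wnt-liver tumors (difference 3.20 ± 0.31, adjusted p = 1.15e-07). Itgb4 and Itga6, which pair as a laminin receptor of hemidesmosomes, were higher by 1.70 ± 0.25 (adjusted p = 5.16e-05) and 1.01 ± 0.19 (adjusted p = 0.000815), each with groups apart. The other 2 integrins were Itga5 and Itga3, and Itga3 (adjusted p = 0.048) lost the call in 19 of the 28 fits (at most 0.123, without metM-Wnt-lung DIOSul replicate 1).

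Of 22 matrix proteases and inhibitors 5 were higher and none lower, with a median of 0.56. Adamts9, a metalloproteinase that cleaves proteoglycans, was higher by 1.34 ± 0.24 (adjusted p = 0.000603). Mmp10, stromelysin-2, read 7.39, 8.17 and 11.64 in metM-Wnt-lung tumors, against 4.20, 5.10 and 6.60 in metM-Wnt-liver tumors (difference 3.48 ± 0.73, adjusted p = 0.0029). The plasminogen activators Plat and Plau were higher by 1.32 ± 0.28 (adjusted p = 0.0031) and 1.48 ± 0.35 (adjusted p = 0.00807), and Adamts4, another proteoglycan-cleaving enzyme, by 1.24 (adjusted p = 0.0149). All but Adamts9 lost their calls without the muscle- or skin-rich arrays (Mmp10, Plat, Plau and Adamts4 at adjusted p = 0.0613, 0.119, 0.0585 and 0.0709). Their differences in that fit were 3.53, 1.09, 1.71 and 1.42. Mmp16, named above and not in the list, was lower. None of 16 genes that the literature ties to lung metastasis was called (median 0.19), and of 13 tied to liver metastasis only Itga5 was, on the side of the lung-metastasis line (median 0.28).

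**Figure D2:**
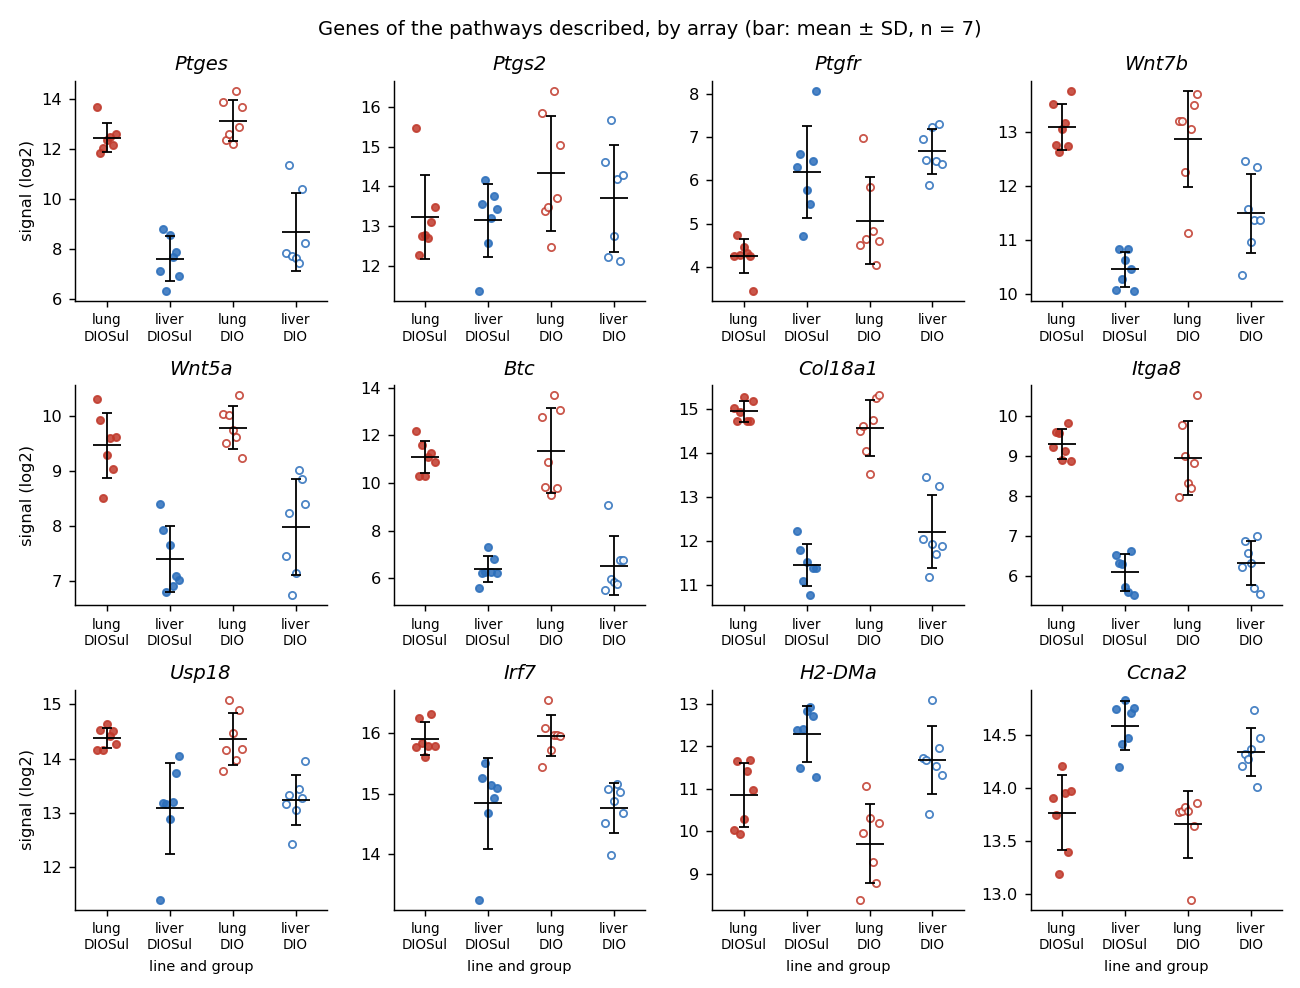
Normalised signal (log2, vertical axes, which differ between panels and do not start at 0) of 12 genes of the 2 lines of DIOSul mice (filled) and DIO mice (open). Each point is 1 array and bars are mean ± SD (n = 7). Ptges, Btc, Col18a1 and Itga8 stay apart between the lines in both groups of mice, while Ptgs2 overlaps in both.

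Of 34 genes of the type I interferon response 33 had a positive difference, with a median of 0.55, and 7 were called, all higher in metM-Wnt-lung tumors. Over all 19505 genes 8725 had a positive difference and 3.66% were called higher. Usp18, which damps interferon receptor signaling, read 14.16, 14.41 and 14.63 in metM-Wnt-lung tumors, against 11.41, 13.19 and 14.04 in metM-Wnt-liver tumors (difference 1.29 ± 0.28, adjusted p = 0.00343). Irf7, the factor that amplifies interferon production, read 15.60, 15.78 and 16.32 in metM-Wnt-lung tumors, against 13.25, 15.10 and 15.51 in metM-Wnt-liver tumors (difference 1.07 ± 0.25, adjusted p = 0.00679). Mx2, an antiviral GTPase, was higher by 1.21 ± 0.28 (adjusted p = 0.00714). The metM-Wnt-lung arrays lay close together at the high end, and metM-Wnt-liver replicate 1 lay lowest at Irf7, Isg15, Oasl1 and Oas1a. Isg15, Oasl1, Bst2 and Oas1a, the other 4 called members, lost the call in 7, 5, 7 and 17 of the 28 fits (at most adjusted p = 0.12, for Oas1a without metM-Wnt-liver DIOSul replicate 1), and all 7 did without the muscle- or skin-rich arrays, where Usp18 and Irf7 differed by 1.28 and 1.13 (adjusted p = 0.0824 and 0.0911).

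For MHC class II all 11 measured members had a negative difference, the median was -1.02, and 3 were called. The mean of the 11 genes was 10.98, 11.60 and 12.53 in metM-Wnt-lung tumors, against 12.34, 12.81 and 13.31 in metM-Wnt-liver tumors, so that the ranges overlapped only at their edges. Ciita, the master regulator of class II transcription, read 6.57, 7.73 and 8.64 in metM-Wnt-lung tumors, against 8.58, 9.33 and 10.05 in metM-Wnt-liver tumors (difference -1.70 ± 0.40, adjusted p = 0.00819). H2-DMa, which helps to load peptides, read 9.94, 10.97 and 11.67 in metM-Wnt-lung tumors, against 11.28, 12.40 and 12.93 in metM-Wnt-liver tumors (difference -1.44 ± 0.40, adjusted p = 0.027). It and H2-Ob, which restrains that loading, lost the call in 6 and 9 of the 28 fits (at most adjusted p = 0.0705 and 0.094, without metM-Wnt-lung DIOSul replicate 3). None of the 3 was called without the muscle- or skin-rich arrays, where Ciita, H2-DMa and H2-Ob differed by -1.55, -1.42 and -0.60 (adjusted p = 0.156, 0.192 and 0.334). Of 20 genes of the interferon gamma response none was higher and 2 lower (median -0.51), Ciita again and Gbp2, a guanylate-binding GTPase, which lost the call in 2 of the fits (at most adjusted p = 0.0518, without metM-Wnt-lung DIOSul replicate 3).

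Of 25 macrophage markers 21 had a negative difference (median -0.49) and none was called, and Adgre1, an adhesion receptor of macrophages, read 12.17, 13.65 and 13.85 in metM-Wnt-lung tumors, against 13.54, 13.98 and 14.66 in metM-Wnt-liver tumors (adjusted p = 0.154). The mean of the 25 markers was 10.19 to 11.08 in metM-Wnt-lung tumors, against 10.71 to 11.79 in metM-Wnt-liver tumors, and the part of these cells in the class II difference was not tested. Among 18 dendritic cell genes, of which 13 had a negative difference, Naaa, a lysosomal amidase, was lower (difference -1.28 ± 0.32, adjusted p = 0.0127, and 0.163 without the muscle- or skin-rich arrays) with groups apart. Clec9a, a receptor of cross-presenting cells, was lower too (adjusted p = 0.0416, lost in 10 of the 28 fits, at most with 0.104 without metM-Wnt-liver DIOSul replicate 4), and Bst2, shared with the interferon list, was higher. No gene was called among 17 T cell, 16 killer cell granule, 15 B cell and 20 cytokine genes, at medians of -0.27, -0.45, 0.02 and 0.12, and Cd3e of the T cell receptor read 8.46 to 11.79 in metM-Wnt-lung tumors, against 9.03 to 12.05 in metM-Wnt-liver tumors (adjusted p = 0.918). Of 21 checkpoint genes the ligands Cd276 and Cd80 were higher, by 1.16 and 1.07 (adjusted p = 0.00572 and 0.0329), Cd80 not in 7 of the 28 fits (at most 0.0914, without metM-Wnt-lung DIOSul replicate 3), and neither without the muscle- or skin-rich arrays (0.212 and 0.16). Cxcl14, a chemokine of epithelial cells and fibroblasts, was the sole one of 22 monocyte and T cell chemokines to pass (2.24 ± 0.43, adjusted p = 0.00119, and 0.0772 without those arrays). Of 16 complement genes 14 had a negative difference (median -0.50). C1s1, a protease of the first component, was lower (difference -2.43 ± 0.59, adjusted p = 0.0108, and 0.101 without those arrays), C5ar1, an anaphylatoxin receptor, was lower (difference -0.81, adjusted p = 0.0405) but not in 10 of the 28 fits (at most 0.107, without metM-Wnt-lung DIOSul replicate 2), and C2 was higher by 1.98 ± 0.35 (adjusted p = 0.000483).

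Over all 19505 genes 10744 had a negative and 8725 a positive difference, and 2.35% were called lower. Of 41 genes of oxidative phosphorylation 37 had a negative difference, the median was -0.21, 7 were called lower and none higher. Cyc1, cytochrome c1, read 8.74, 8.78 and 9.32 in metM-Wnt-lung tumors, against 9.52, 9.93 and 10.24 in metM-Wnt-liver tumors (difference -0.96 ± 0.20, adjusted p = 0.00317). Cox6c and Cox5a, subunits of cytochrome oxidase, differed by -0.47 ± 0.11 and -0.47 ± 0.12 (adjusted p = 0.00572 and 0.0147), each without its call when the muscle- or skin-rich arrays were left out (0.0545 and 0.131). The other 4, Ndufa1, Ndufb9, Ndufv2 and Cox7b, lost the call in 7 to 15 of the 28 fits (at most adjusted p = 0.109, for Ndufb9 without metM-Wnt-lung DIOSul replicate 4). Samm50, of the mitochondrial outer membrane, differed by -1.08 ± 0.13, and Echs1, enoyl-CoA hydratase of fatty acid oxidation, by -1.39 ± 0.16 (adjusted p = 1.56e-06). Oxct1, which lets cells burn ketone bodies, read 12.63, 12.91 and 13.15 in metM-Wnt-lung tumors, against 13.73, 14.40 and 14.87 in metM-Wnt-liver tumors, with no overlap (difference -1.42 ± 0.14, adjusted p = 2.8e-07). Of 21 fatty acid oxidation genes 1 was lower, Echs1, and 1 higher, Acadl, whose call was lost in 9 of the 28 fits (at most adjusted p = 0.107, without metM-Wnt-liver DIOSul replicate 1).

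Of 20 genes of cholesterol synthesis and uptake 18 were negative (median -0.42), with 2 called. Sqle, squalene epoxidase, read 9.51, 11.62 and 12.56 in metM-Wnt-lung tumors, against 11.82, 13.16 and 13.66 in metM-Wnt-liver tumors (difference -1.67 ± 0.42, adjusted p = 0.0134, and 0.0929 without the muscle- or skin-rich arrays), and Mvk, mevalonate kinase, lost its call in 10 of the 28 fits (at most adjusted p = 0.102, without metM-Wnt-liver DIOSul replicate 6). None of 16 fatty acid synthesis or 26 hypoxia and glycolysis genes passed (medians -0.10 and 0.04). Of 27 mitosis genes 22 were negative and 3 called lower (median -0.29). Ccna2, cyclin A2, read 13.19, 13.91 and 14.21 in metM-Wnt-lung tumors, against 14.20, 14.71 and 14.83 in metM-Wnt-liver tumors (difference -0.82 ± 0.16, adjusted p = 0.00122), and Ect2 and Ttk, of cytokinesis and the spindle checkpoint, differed by -0.61 ± 0.15 and -0.63 ± 0.17 (adjusted p = 0.012 and 0.0202). Ttk lost its call in 2 of the 28 fits (at most adjusted p = 0.0584, without metM-Wnt-lung DIOSul replicate 3). Rfc4, a clamp loader, was the 1 called gene of 31 for DNA replication (difference -0.69 ± 0.14, adjusted p = 0.00238, list median -0.14), a share near that over all genes. Without the muscle- or skin-rich arrays these 4 were not called (Ccna2, Ect2, Ttk and Rfc4 at adjusted p = 0.0784, 0.296, 0.395 and 0.196). They differed there by -0.70, -0.47, -0.44 and -0.50. Of 29 NRF2 and glutathione genes 3 were higher and 1 lower. Nqo1, a quinone reductase, was higher by 1.29 ± 0.27 (adjusted p = 0.0029) and Gsr, glutathione reductase, by 0.80 ± 0.17 (adjusted p = 0.00325), Nqo1 with adjusted p = 0.0528 without those arrays. Mgst2 and the lower Gclm lost their calls in 6 and 13 of the 28 fits (at most adjusted p = 0.0764 without metM-Wnt-lung DIOSul replicate 1, and 0.0956 without metM-Wnt-liver DIOSul replicate 6). Of 20 stress genes only Sdf2l1, a chaperone cofactor of the endoplasmic reticulum, was called, as lower (difference -1.12 ± 0.26, adjusted p = 0.00649, and 0.118 without those arrays), and of 28 oncogenes and tumor suppressors only Brca2, of DNA repair (difference -0.75 ± 0.17, adjusted p = 0.00462, and 0.163 without those arrays).

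No gene was called of 17 fibroblast, 14 adipocyte, 18 endothelial or 9 lymph node stroma markers (medians -0.22, 0.05, 0.45 and -0.03). Of the endothelial markers 15 of 18 had a positive difference, and in DIO mice 3 were called higher (median 0.50). Pecam1 of endothelium read 10.77 to 12.12 in metM-Wnt-lung tumors, against 10.65 to 11.25 in metM-Wnt-liver tumors (difference 0.62, adjusted p = 0.159). Of 13 pericyte and smooth muscle markers 2 were lower, Acta2 and Cspg4, the NG2 proteoglycan (difference -1.47 ± 0.32, adjusted p = 0.0042), at a list median of -0.03. S100b, of 7 nerve markers, was higher by 2.22 ± 0.57 (adjusted p = 0.0162, and 0.143 without the muscle- or skin-rich arrays), and Pmp22, a myelin protein, was lower (adjusted p = 0.0405, lost in 10 of the 28 fits, at most with 0.105 without metM-Wnt-lung DIOSul replicate 1). Of 20 Hippo pathway genes Wwtr1, the coactivator TAZ, was higher by 0.84 ± 0.16 (adjusted p = 0.00123, and 0.0843 without the muscle- or skin-rich arrays) and Vgll3, named above, lower. None of 32 Hox genes was called (median 0.08).

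**Figure D3:**
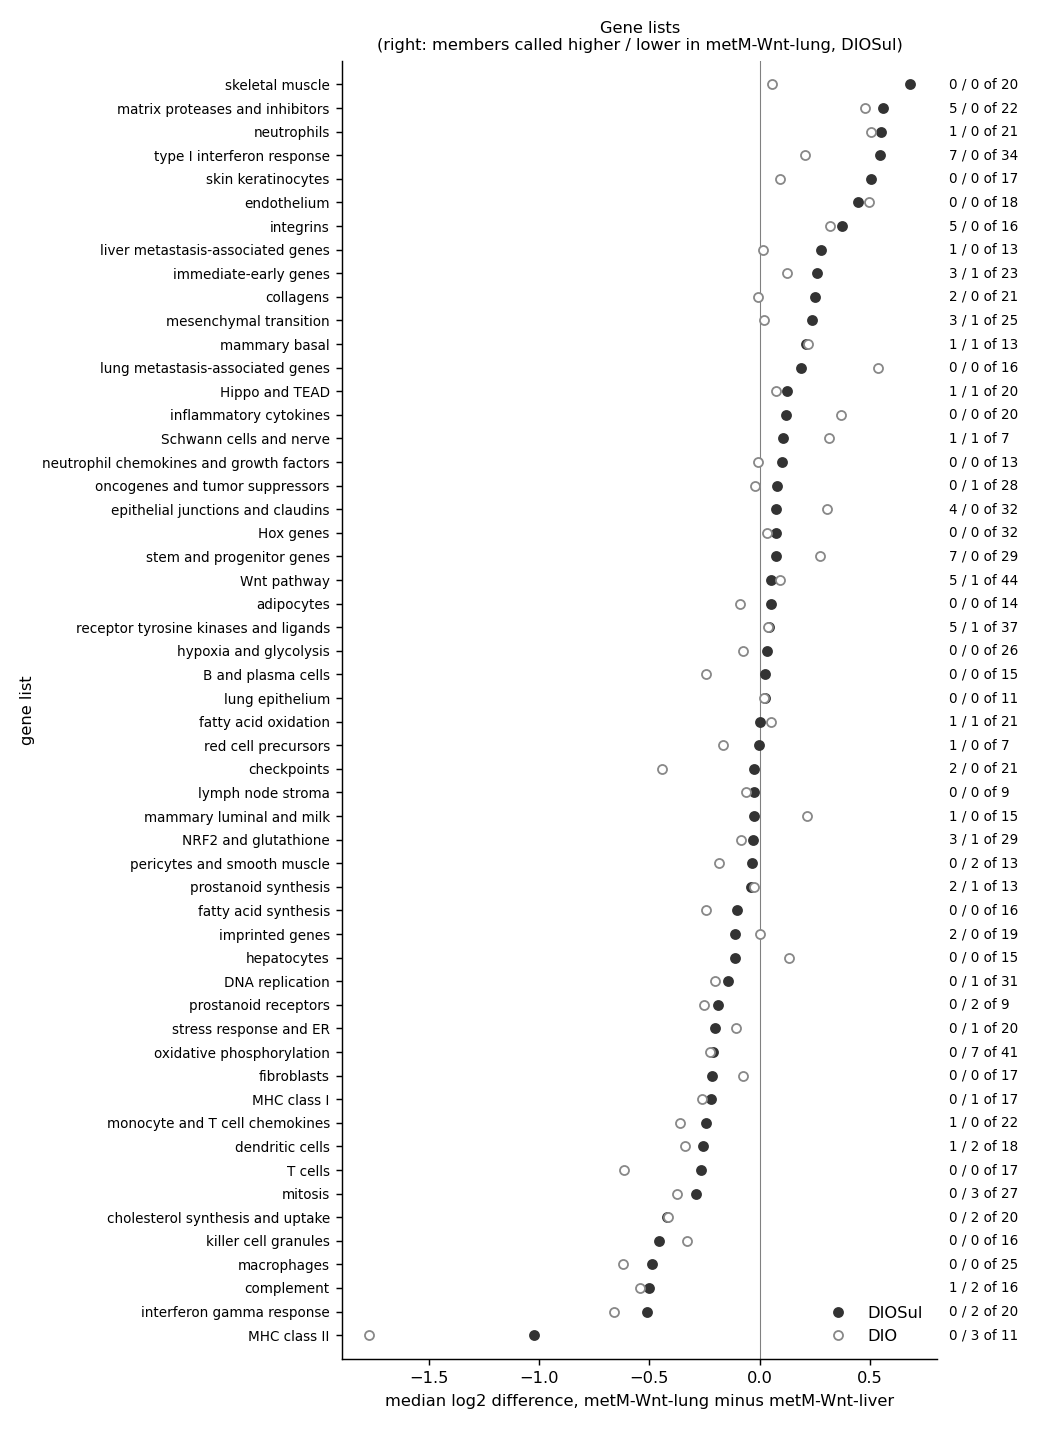
Median log2 difference (horizontal axis) over the measured members of each of 54 gene lists (rows) in DIOSul (filled) and DIO mice (open), with the members called higher and lower in DIOSul at the right. Medians run between -1.02 (MHC class II) and 0.68 (skeletal muscle, of which no member is called) in DIOSul mice, against -0.03 over all genes.

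The lines were also compared without sulindac. The DIO tumors came from other mice, but their arrays shared the fit and its estimate of spread with the DIOSul arrays. In DIO mice 1451 genes (7.44%) differed between the lines, 790 higher (4.05%) and 661 lower (3.39%) in metM-Wnt-lung tumors. That count, on which the shares below rest, was 832 in a fit of the 14 DIO arrays alone and 914 without the muscle- or skin-rich arrays. Of the genes called in DIOSul mice 687 were also called in DIO mice, which is 58.6% of the DIOSul and 47.3% of the DIO calls, and all 687 had the same direction, 440 higher and 247 lower. Since both calls use the shared spread they are not independent, and the overlap of separate fits was not counted. Of the 1173 called in DIOSul mice 97.8% had the same sign in DIO mice, against 65.3% of all genes. Called or not, the lines were apart at 561 of the 19505 genes in DIOSul mice and at 343 in DIO mice. At 87 higher and 55 lower genes they were apart in both groups of mice, and no gene was apart in opposite directions. Across genes, which are not independent replicates, the differences in DIOSul and DIO mice correlated with Pearson's r = 0.747.

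Ptges read 12.21, 12.88 and 14.33 in metM-Wnt-lung tumors of DIO mice, against 7.45, 7.86 and 11.38 in metM-Wnt-liver tumors, with a difference of 4.46 in DIO and 4.84 in DIOSul mice. Zfp518b, a zinc-finger protein, read 9.84 to 10.59 in metM-Wnt-lung tumors, against 7.20 to 8.08 in metM-Wnt-liver tumors of DIOSul mice, and 9.92 to 10.91 against 6.98 to 8.71 in DIO mice (difference 2.44 ± 0.20 and 2.68). Galnt13, a mucin-type glycosyltransferase, read 3.15 to 3.36 in metM-Wnt-lung tumors, against 4.85 to 6.81 in metM-Wnt-liver tumors of DIOSul mice, and 3.12 to 3.65 against 4.98 to 7.84 in DIO mice. Zfp518b and Galnt13 are shown because they were apart in every condition. In all 4 conditions, lean mice included, 3 of the 19505 genes were higher with groups apart, Gfra1 (a GDNF receptor), Wnt5a and Zfp518b. Another 6 were lower, Epb41l4a, Galnt13, Oxct1, Samm50, Slc25a17 and Vps28. In lean mice the groups were apart at 1459 genes in Con and at 1850 in ConSul tumors. Gfra1 read 8.17, 9.18 and 9.98 in metM-Wnt-lung tumors, against 6.47, 7.01 and 7.5 in metM-Wnt-liver tumors of DIOSul mice, and differed by 2.10 in DIO, 2.67 in Con and 2.04 in ConSul mice. Among the lists, oxidative phosphorylation had 7 of 41 genes lower in DIO mice, besides 1 higher, as it had 7 lower in DIOSul mice (medians -0.22 in DIO and -0.21 in DIOSul mice). Mitosis had 6 of 27 lower in DIO and 3 in DIOSul mice (-0.38 and -0.29), cholesterol synthesis and uptake 4 of 20 and 2 (-0.41 and -0.42), and matrix proteases 5 of 22 higher in each (0.48 and 0.56).

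**Figure D4:**
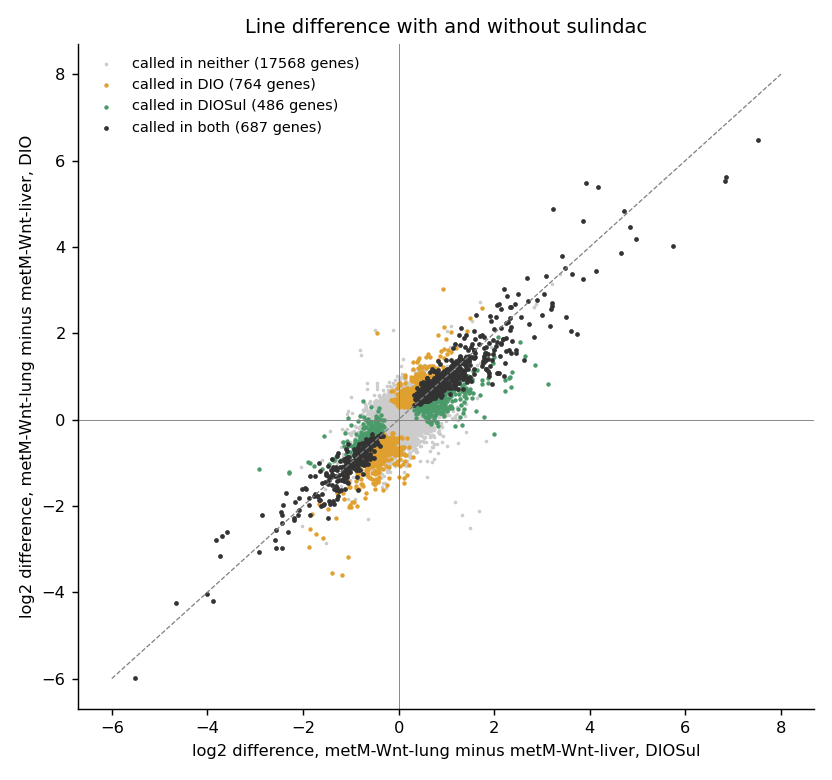
Log2 difference between the lines of each of 19505 genes in DIOSul mice (horizontal axis) and DIO mice (vertical axis), coloured by the comparison in which it was called (486 in DIOSul alone, 764 in DIO alone, 687 in both). The dashed line marks equal differences, and no gene called in both lies in a quadrant of opposite sign.

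No gene was called for a change of the line difference with sulindac by limma (percent called 0.0, smallest adjusted p 0.999). An unadjusted p under 0.05 was found at 739 genes (3.79%), a smaller share than that threshold lets pass where nothing changes. The 486 genes called in DIOSul mice alone are thus not shown to depend on the drug. The same holds for the single genes named next, which were picked after their values were seen. The gene with the smallest p, Smim13, a small membrane protein, differed by -0.57 in DIOSul and 0.30 in DIO mice. Nav1, neuron navigator 1, read 11.21, 11.71 and 12.59 in metM-Wnt-lung tumors, against 10.11, 10.29 and 10.79 in metM-Wnt-liver tumors of DIOSul mice. In DIO mice it read 9.44, 10.79 and 11.53 in metM-Wnt-lung tumors, against 9.89, 10.97 and 11.43 in metM-Wnt-liver tumors. The lines were apart with sulindac and overlapped without it, at a change of 1.44 (unadjusted p = 0.000496). Dnm1, dynamin, differed by 1.17 in DIOSul and -0.15 in DIO mice, and Otop1, a proton channel, by 3.12 and 0.82. Adamts9 and Itgb4 also differed more in DIOSul (1.34 and 1.70) than in DIO mice (0.16 and 0.56), with unadjusted p of 0.00177 and 0.00324 for the change and none past the adjustment. For MHC class II it was the reverse, with 3 of 11 called lower and a median of -1.02 in DIOSul mice, and 10 of 11 called lower and a median of -1.77 in DIO mice, and no member passed for the change. Type I interferon genes had 7 and 3 of 34 called higher, with medians of 0.55 and 0.21.

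In lean mice the lines differed at 4676 genes (24%) in Con and 1727 (8.85%) in ConSul tumors. The Con arrays of metM-Wnt-lung and the ConSul arrays of metM-Wnt-liver reached higher signals than the rest, their 99th percentiles being 16.18 to 16.35 and 16.25 to 16.38, with 15.9 to 16.13 in the other metM-Wnt groups, and the part of this in the counts was not tested. Of the 1173 genes called in DIOSul mice 722 had the same sign in all 4 conditions. That share was not counted over all genes, so that the 722 are a description only. Krt8 differed by 2.41 in Con and 4.90 in ConSul mice, Ptges by 2.86 and 2.63, Btc by 2.79 and 2.45 and Col18a1 by 1.96 and 1.72. Sqle differed by -2.98 and -0.27, and Irf7 by 2.48 and -0.93, so that its sign turned. The macrophage and complement lists turned sign between Con (medians 1.13 and 1.48) and ConSul mice (-1.44 and -1.99).

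The called genes were not spread evenly over the chromosomes. Chromosome 4 held 14.5% of all calls and chromosome 15 held 14.9%. Of 1179 genes on chromosome 4, 13.6% were called higher and 0.848% lower, and of 715 on chromosome 15, 9.93% were higher and 14.5% lower. Without the muscle- or skin-rich arrays 5% of the chromosome 4 genes were called higher, and 5.03 and 4.76% of the chromosome 15 genes higher and lower. On the other chromosomes 1.71 to 4.56% were higher and 1.22 to 5.43% lower. In a running median over 25 neighbouring genes above the median signal, a definition chosen after the data were seen, windows past 0.3 in 1 direction were joined where at most 25 apart. That gave a stretch of 464 genes on chromosome 4 with higher signal in metM-Wnt-lung tumors, Anp32b to Noc2l (ranks 123 to 586 of 586). The shift on chromosome 15 turned sign once, with 281 genes lower, Selenop to Alg12 (ranks 1 to 281 of 387), and 126 higher, Pacsin2 to Pde1b (ranks 262 to 387). The 2 overlap where the sign turns. The median differences were 0.39, -0.46 and 0.54, and 142, 99 and 62 genes were called in the direction of their stretch (30.6, 35.2 and 49.2%) and 3, 8 and 5 against it. These stretches were chosen by the DIOSul values, so their DIOSul counts are a description.

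The differences in DIO mice were not used to find them. The DIO arrays did enter the mean signal by which genes were kept, and the shared estimate of spread. There the medians were 0.39, -0.47 and 0.37, 182, 98 and 41 genes (39.2, 34.9 and 32.5%) were called in the same direction and 7, 7 and 8 against it. Of the 8627 genes above the median signal outside all stretches 5.12% were called higher and 5.04% lower in DIO mice. The sign of the stretch was found at 84.7, 86.5 and 79.4% of its genes, while outside 45.1% of genes had a positive and 54.8% a negative difference. In single tumors of DIO mice, the mean signal of the chromosome 4 genes, less that of the genes outside all stretches, stood at 0.03, 0.33 and 0.43 in metM-Wnt-lung tumors, against -0.16, -0.12 and -0.10 in metM-Wnt-liver tumors. The 281 lower genes of chromosome 15 stood at 0.10, 0.49 and 0.72 in metM-Wnt-lung tumors, against 0.75, 0.94 and 1.03 in metM-Wnt-liver tumors. On both the lines did not overlap, by a narrow margin on chromosome 15. The 126 higher genes of chromosome 15 stood at -0.16, 0.29 and 0.50 in metM-Wnt-lung tumors, against -0.27, -0.17 and 0.11 in metM-Wnt-liver tumors, so that the lines overlapped there. In DIOSul mice, whose differences chose the stretches, the medians on the 3 stretches were 0.24, 0.45 and 0.14 in metM-Wnt-lung tumors, against -0.17, 0.90 and -0.32 in metM-Wnt-liver tumors. In lean mice the medians were smaller on chromosome 4 (0.10 in Con, 0.23 in ConSul) and at the higher end of chromosome 15 (0.08 and 0), and -0.64 and -0.30 over its lower part.

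Several of the genes above lie in these stretches. On chromosome 4 Padi4, Epha2, Ctnnal1 (alpha-catulin, higher by 2.72 ± 0.36) and Mtap (an enzyme of methionine salvage, 16.41 to 17.01 in metM-Wnt-lung tumors, against 15.22 to 15.79 in metM-Wnt-liver tumors) were higher, while Mmp16 on the same chromosome was lower. On chromosome 15 Oxct1, Samm50, Cyc1, Cox6c, Sqle, Slc25a17 and Vps28 were lower, as was Cenpm, a centromere protein, at 9.30, 10.35 and 10.77 in metM-Wnt-lung tumors, against 11.96, 12.20 and 13.01 in metM-Wnt-liver tumors. Krt8, Wnt7b and Grasp, a scaffold protein (2.21 ± 0.31, adjusted p = 2.65e-05), were higher there. Over all 12 stretches that the rule found, 1124 genes (11.5% of 9751 above the median signal) held 358 of 994 DIOSul calls, and 31.9% of the genes inside and 7.37% of those outside were called, which describes the choice. The cause of the stretches was not tested.

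**Figure D5:**
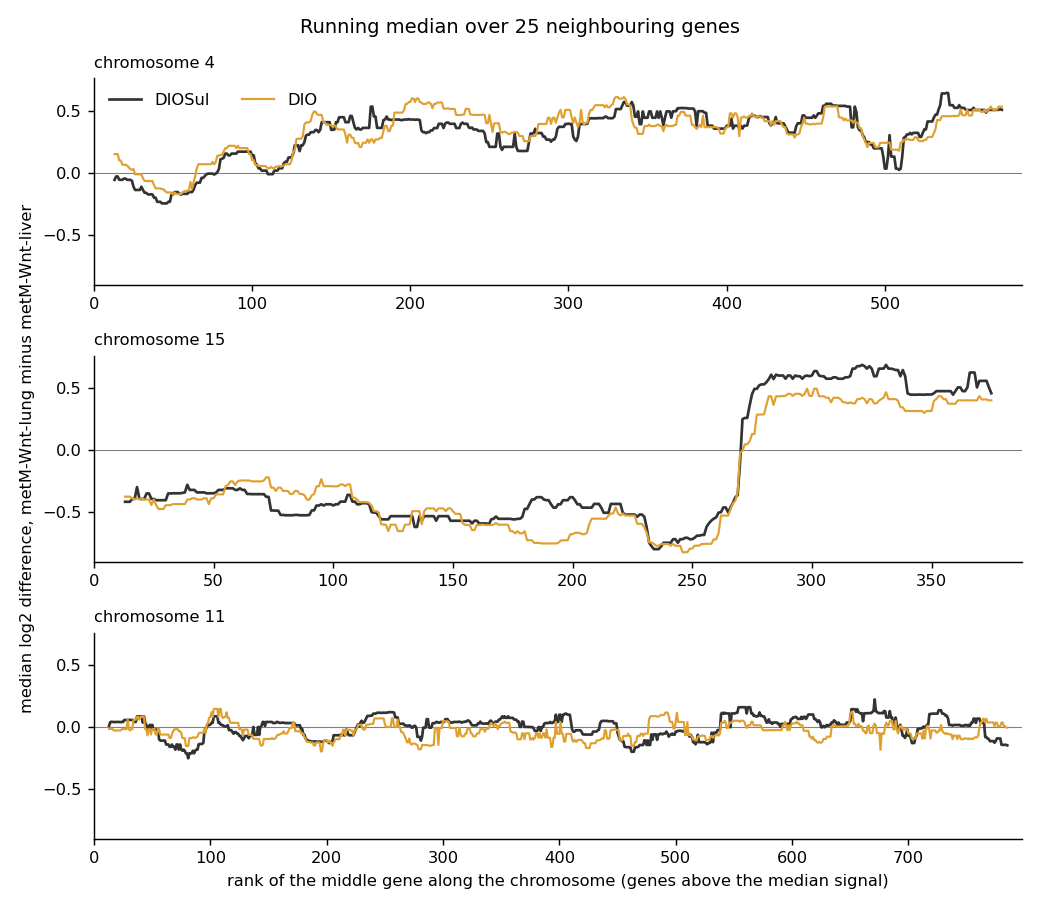
Running median over 25 neighbouring genes above the median signal of the log2 difference between the lines (vertical axis), by rank along chromosomes 4, 15 and, for contrast, 11, in DIOSul (black) and DIO mice (orange). On chromosome 4 both lines of the plot stay above 0 past rank 123, and on chromosome 15 both turn from negative to positive between ranks 262 and 281.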

How the data were processed

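RNA of whole tumors had been run on Clariom S Mouse HT arrays, and the authors normalised them with SST-RMA in the Transcriptome Analysis Console. The deposited log2 values (the base follows from their range) were used unchanged, and whether all arrays were normalised together was not given in the sources used here. RNA was extracted with a column kit, named differently in the labels and the methods. Of 22206 transcript clusters 19572 carried 1 gene symbol and 2634 none. Where clusters shared a gene (55 genes) the one with the highest mean was kept, which left 19505 genes. limma 3.58.1 (R 4.3.3) fitted 1 model to the 28 arrays of both lines in DIOSul and DIO mice (4 groups), with moderated tests, Benjamini-Hochberg adjustment over all genes, 0.05 as threshold, and the change with sulindac as interaction. The 23 lean arrays had a fit of their own. Tables and figures were made in Python 3.11.15 with pandas 2.3.3, NumPy 2.4.6 and matplotlib 3.10.9. The scripts were tested on simulated data.

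The genes named are the 10 with the largest difference in each direction among those called with groups apart, and per list up to 3 called members, or the first measured 1. The members and the 54 lists (1199 entries, 1092 measured) were chosen with earlier results of these data known, and the remaining named genes, among them those that complete a small count, Prl2c3, Nav1, Otop1 and the genes of the chromosome stretches, after their values were seen. Replicates are separate mice, so p-values measure the spread between mice of 1 line and cohort. Tumor mass was not in the fits. An array counted as high in muscle or skin where its score, centred over all arrays of its line, passed 2 or 1. The alternatives were other sets of arrays, a replicate block, quantile or median normalization, array weights, trended robust variances, a filter at the median signal, means over clusters, a difference of at least 1, covariates for cell type scores, and fits without each array in turn. The number of arrays limits the precision. Promoter sequences are RefSeq's (GRCm38.p6).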

Additional observations from a re-analysis of the deposited data

Results flagged for a closer look

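In 27 of 310 groups of 7 DIOSul arrays (155 named genes in each line) 1 array lay far from the other 6, by a gap to the nearest that passed Dixon's critical value at 5%. Chance alone flags about 5% of groups. metM-Wnt-lung replicate 1 accounted for 10 of the 27. It was lowest at Krt8 (12.50) and highest at Ptges (13.68), Slc14a1 (13.79), Itga6 (16.33), Cxcl1 (8.92), Dll1 (8.82), Ptgs2 (15.47), Plau (14.16), Klf5 (11.73) and Cd44 (16.46). In metM-Wnt-lung tumors replicate 3 was highest at Wls (15.02), replicate 5 lowest at Egr1 (10.67) and highest at Bpgm (10.30), and replicate 7 lowest at Ptgfr (3.46).

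metM-Wnt-liver replicate 1 accounted for 6. It was lowest at 4 interferon-induced genes, Irf7 (13.25), Isg15 (9.95), Oasl1 (6.71) and Oas1a (10.48), and highest at Acta2 (15.64) and Mgst2 (11.27). Replicate 2 was lowest at Ect2 (12.73) and highest at Cd276 (10.57), and replicate 3, rich in muscle RNA, lowest at Sqle (11.82). Replicate 4, rich in skin RNA, was highest at Plet1 (7.69) and Slc14a1 (8.80), and replicate 5 highest at Cd79a (5.25) and lowest at S100b (4.89). Leaving out DIOSul replicate 1 ended the calls of 23 named genes for metM-Wnt-lung and of 25 for metM-Wnt-liver tumors. Slco2a1, Tbxas1, Itga5, Klf5, Oasl1 and Oas1a were among the genes that lost their call without replicate 1 of one of the lines. Other arrays ended as many calls, with 24 each for metM-Wnt-lung replicates 3 and 4 and 25 for metM-Wnt-liver replicate 5. The fewest were 14, for metM-Wnt-lung replicate 6.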

How the results depend on the processing

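No call of a named gene was reversed under any alternative run. Counts in DIOSul mice moved past 1.5-fold with a difference of at least 1 (466, 313 higher and 153 lower) and without the 5 arrays rich in muscle or skin genes (435, 301 and 134), and otherwise ran between 1038 (all 51 metM-Wnt arrays) and 1516 (array weights). Counts in DIO mice moved to 832 with only the 14 arrays compared, 534 with a difference of at least 1 and 914 without the arrays rich in muscle or skin. Fewer arrays enter the first and the last of these. Leaving out 1 array gave 936 to 1295 genes in DIOSul and 1084 to 1844 in DIO mice, and the change with sulindac stayed at 0 calls throughout. Samples of the same replicate number share only a number (mean correlation of their deviations -0.00334 in 42 pairs, 0.00118 between other numbers), and a replicate block gave 1120 genes in DIOSul and 1371 in DIO mice and 0 for the change. Median-centred arrays gave 536 higher and 523 lower genes in DIOSul mice, 765 and 539 in DIO mice. Of 155 named genes 131 were called, 58 under every alternative, and 66 not without the arrays rich in muscle or skin, 37 not with a difference of at least 1, and 23 not with all 51 arrays. With B cell and lymph node scores Pecam1 (0.68, adjusted p = 0.0294) and Ccl21a (2.31, 0.0324) were called. Without the arrays rich in muscle or skin the list medians moved to -0.10 (receptor tyrosine kinases), 0.22 (stem genes) and 0.26 (integrins), and the called shares on chromosome 4 (higher) and 15 (higher, lower) to 5.0, 5.03 and 4.76%. Over genes above the median signal these shares were 30.5, 18.9 and 31.3%, with a difference of at least 1 they were 3.05, 2.94 and 3.5%, and with 1 array left out 10.5 to 14.9, 8.53 to 10.2 and 10.8 to 16.1%. In lean mice the 51- and 79-array fits gave 5171 and 5302 genes in Con, and 2003 and 2166 in ConSul mice. For arrays the brightness of a probe sets what can be told apart, and probes of low signal on all arrays give only weak evidence.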
